A study of Oryza sativa Japonica Group with 8 samples.

Results

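The genes described here are the cytosolic ribosomal protein genes of rice (Oryza sativa), taken as every gene whose deposited description names a 40S or 60S ribosomal protein, acidic ones included. This rule found 177 genes among the 37869 genes of the table, 70 of the small subunit and 107 of the large subunit, and it used no measured value. They fall into 68 families by the name of the protein. Of these families, 14 had 1 gene and 54 had 2 or more gene copies (paralogs) among the 177 genes. A further 109 ribosomal protein genes, described without a subunit name, lay outside the rule. Families may therefore have more copies than counted here, and whole families may be missing. One gene that the rule took, Os03g0725000, is described as a mitochondrial L6 protein, and it was kept. After the filter on low counts 169 of the 177 genes were tested, among 24383 genes tested in all, and the other 8 had too few counts.

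Leaf RNA of rice plants aged 4 weeks by the labels (a figure legend of the study gives a younger age) was sequenced in 4 groups with 2 libraries each. OsGRP3 OE plants carried the OsGRP3 coding sequence under the OsCc1 promoter in cultivar Nakdong, and were set against non-transgenic (NT) Nakdong plants. OsGRP3 KD plants carried an inverted repeat of a piece of the OsGRP3 3′ untranslated region under the OsGOS2 promoter, an RNA interference construct, in cultivar Dongjin, and were set against NT Dongjin plants. All plants grew in soil at 28 °C with 16 h of light and 8 h of dark and had not been exposed to drought, and which transgenic lines were sequenced is not given in the sources used here. OsGRP3 encodes a glycine-rich RNA-binding protein, and the comparisons ask which leaf transcripts change when its level is raised or lowered. The labels do not say that the 2 libraries of a group came from separate plants (the study calls them biological replicates), so p-values measure the spread between these libraries.

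A cytosolic ribosome is built from ribosomal RNAs and many different proteins, each needed in a fixed ratio in its subunit. The families here are those that the rule found and need not cover all of these proteins. In plants nearly every ribosomal protein is encoded by several paralogs, and the genes are known to be most active in dividing and growing cells, where the demand for new ribosomes is high. The small subunit decodes the mRNA, the large subunit joins the amino acids, and the acidic P proteins form a stalk on the large subunit that calls in the elongation factors.

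Total estimated counts lay between 25836946 and 38940899 per library. Both NT Dongjin libraries stood apart, with 13721 and 13166 genes at 0 counts, against 11070 to 11903 in the other 6 libraries. Their reads also lay differently along the transcripts. Over 5735 genes, the median log2 ratio of coverage in the first exon over the last exon was -2.28 and -2.62 in OsGRP3 KD and -0.76 and -0.69 in NT Dongjin, whereas it was -2.28 and -2.56 in OsGRP3 OE and -2.57 and -2.24 in NT Nakdong. Every difference from NT Dongjin therefore compares libraries of different coverage, and the knockdown, the coverage and whatever else set these 2 libraries apart cannot be told apart. For this reason the comparison of OsGRP3 KD with NT Nakdong, of another cultivar but of like coverage, is given beside it. OsGRP3 (Os03g0670700) had 1820 and 2421 FPKM (a level per transcript length and library size) in OsGRP3 OE leaves, against 1542 and 1468 FPKM in NT Nakdong, a log2 change of 0.51 ± 0.12 (SE, edgeR adjusted p = 0.067). It had 441 and 389 FPKM in OsGRP3 KD leaves, against 517 and 512 FPKM in NT Dongjin, a log2 change of -0.26 ± 0.12 (edgeR adjusted p = 0.076). The libraries did not overlap in either pair and lay in the direction of their labels, but neither change passed an adjusted p of 0.05. Set against NT Nakdong, the log2 difference of OsGRP3 KD was -1.85 ± 0.12 (SE, edgeR adjusted p = 7e-05), and NT Dongjin itself lay well below NT Nakdong. The leaf label was met by the Rubisco small subunit gene Os12g0274700, which had 15910 to 19520 FPKM in 6 libraries and 3730 and 3654 FPKM in NT Dongjin, while the shoot meristem gene OSH1 had 0 counts in all 8 libraries and the root gene RCc3 had 0 counts in 6 and 7 counts in each NT Nakdong library.

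Ribosomal protein transcripts were abundant in leaves, and their levels were close in 3 of the 4 groups and lower in NT Dongjin. Together they made up 1.84% and 1.68% of the TPM (a level per transcript length with the same sum in every library) in OsGRP3 OE and 1.76% in each NT Nakdong library. The share was 1.76% and 1.81% in the OsGRP3 KD libraries, against 1.07% and 1.05% in those of NT Dongjin. The ratio of mean shares was thus 1.69 between OsGRP3 KD and NT Dongjin, and 1.97 when the share was taken of the counts, where it was 1.22% and 1.28% in OsGRP3 KD and 0.638% and 0.631% in NT Dongjin. In a bulk leaf sample, fewer cells with high ribosomal protein expression and less such RNA per cell cannot be told apart. The median FPKM of all 177 genes, untested ones included, followed the same order, with 81.5 and 72.7 FPKM in OsGRP3 OE, 75.4 and 77.1 FPKM in NT Nakdong, 77.2 and 79.2 FPKM in OsGRP3 KD, and 39.6 and 40.7 FPKM in NT Dongjin.

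**Figure D1:**
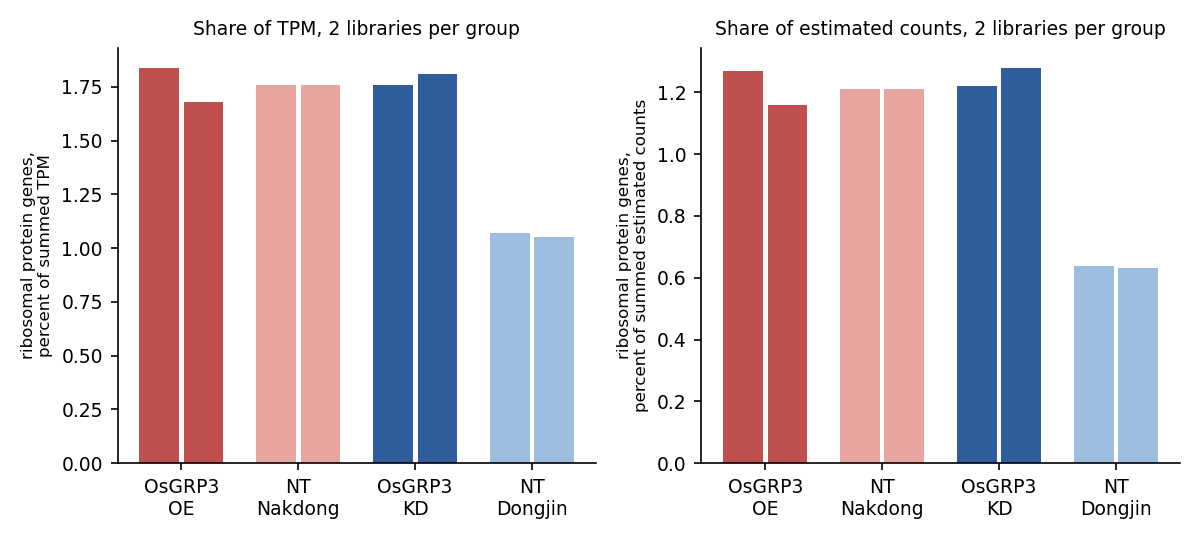
Share of the 177 ribosomal protein genes in each library, as percent of summed TPM and as percent of summed estimated counts (y axes, from 0), by group (x axis), 1 bar per library. The 6 libraries of OsGRP3 OE, NT Nakdong and OsGRP3 KD lie between 1.68% and 1.84% of TPM, and both NT Dongjin libraries lie at 1.07% and 1.05%.

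On the per-length FPKM scale the genes spread widely. The mean over all 8 libraries had a median of 73.3 FPKM across the 169 tested genes, with quartiles at 38.9 and 106 FPKM, against a median of 6.04 FPKM over all tested genes. At the top stood L10 (Os05g0169100), a large subunit protein that is added late in assembly, with 457 and 472 FPKM in OsGRP3 OE, 482 and 470 FPKM in NT Nakdong, 523 and 560 FPKM in OsGRP3 KD, and 240 and 241 FPKM in NT Dongjin. The stalk protein P2 (Os05g0445500) came next, with 402 and 416 FPKM in OsGRP3 OE, 389 and 355 FPKM in NT Nakdong, 399 and 442 FPKM in OsGRP3 KD, and 155 and 149 FPKM in NT Dongjin. In both genes the 6 libraries other than NT Dongjin lay within a narrow band and NT Dongjin lay well below it. L36 (Os05g0459900), P1 (Os08g0116500), L39 (Os06g0181566) and L9 (Os09g0485900) followed, and 57 genes had at least 100 FPKM. At the bottom, 3 tested genes had under 1 FPKM, namely L38 (Os08g0541950), L35 (Os06g0732000) and P0 (Os11g0135400), each a minor paralog of a family with a far more abundant member. The genes were also short, with a median of 789 bases for the longest transcript, against 1535 bases over all tested genes.

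Between OsGRP3 OE and NT Nakdong leaves, the ribosomal protein genes hardly differed, with the exception of the L44 family and of 1 S9 gene. At 2-fold with an edgeR adjusted p under 0.05, 2 of 169 genes rose, both of them L44 genes, and 0 fell. Over all tested genes the same thresholds took 0.619% as higher and 0.853% as lower. With an unadjusted p, which is the threshold of the study, 3 genes were higher and 0 lower, the third being the scarce L38 gene Os08g0541950, against 1.74% and 2.60% of all tested genes. DESeq2 also called 2 genes. Without the fold threshold, 6 genes had an adjusted p under 0.05 and all 6 were higher in OsGRP3 OE, beside 1.04% of all tested genes that were higher and 1.30% that were lower. The median log2 change over the 169 genes was 0.03 with quartiles of -0.04 and 0.11, which is a narrower spread than over all tested genes, whose median was 0.00 with quartiles of -0.20 and 0.18. Without overlap of the libraries, OsGRP3 OE stood above NT Nakdong in 43 of 169 genes, beside 22.0% of all tested genes, and below it in 11, beside 23.8% of all tested genes. The direction of so small a median was not stable, since it was -0.07 without OsGRP3 OE replicate 1.

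**Figure D2:**
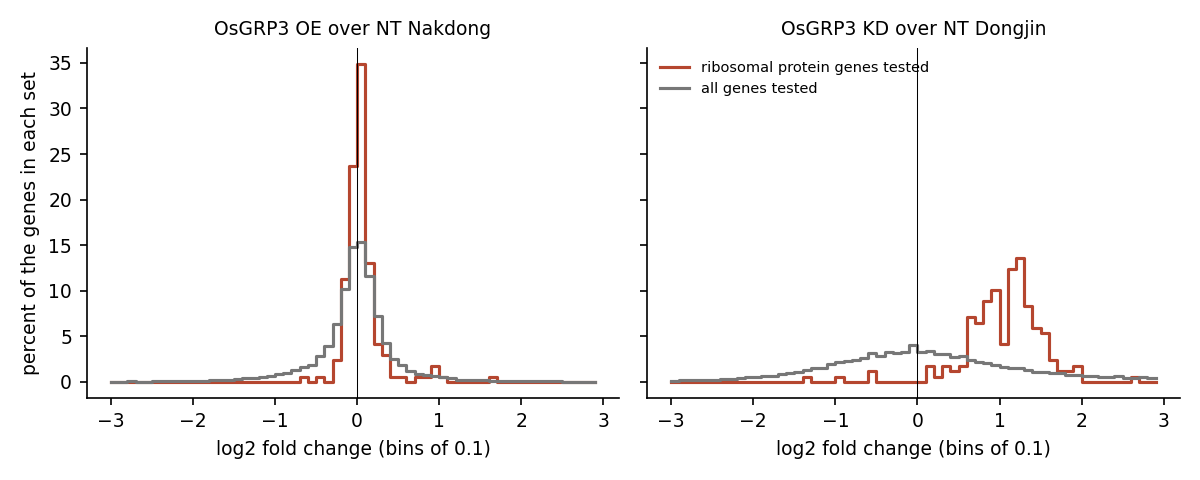
Distribution of log2 fold changes in bins of 0.1 (x axis), as percent of the genes in each set (y axis), for the 169 ribosomal protein genes and for all 24383 tested genes, in OsGRP3 OE over NT Nakdong (left) and OsGRP3 KD over NT Dongjin (right). The ribosomal protein genes form a narrow peak at a median of 0.03 on the left and of 1.12 on the right, and 2 of them lie outside the axis in each panel.

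L44 is a small basic protein of the large subunit at the site where spent tRNA leaves. It is encoded by 6 of the 177 genes, all on the plus strand of chromosome 7 of the IRGSP-1.0 build. One, Os07g0450000, lies alone at 15448861 to 15451411, and 5 lie close together between 20256757, the start of Os07g0523100, and 20312255, the end of Os07g0523700. Summed over the 6 genes, L44 had 703 and 492 FPKM in OsGRP3 OE, against 312 and 301 FPKM in NT Nakdong, and 515 and 533 FPKM in OsGRP3 KD, against 187 and 191 FPKM in NT Dongjin. Both transgenic groups lay above both NT groups in this sum. In OsGRP3 OE, L44 was the 1 family of 68 with a called gene.

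Os07g0450000 had 33.1 and 34.6 FPKM in OsGRP3 OE, against 11.5 and 10.9 FPKM in NT Nakdong. It had 29.1 and 32.8 FPKM in OsGRP3 KD, against 15.3 and 13.2 FPKM in NT Dongjin. The gene was thus about equally high in both transgenic groups and low in both NT groups, without overlap. Its log2 change was 1.63 ± 0.13 (SE, edgeR adjusted p = 0.000264) in OsGRP3 OE, a 3.1-fold rise, and 1.15 (edgeR adjusted p = 6.1e-05) in OsGRP3 KD. Set against NT Nakdong in place of NT Dongjin, the log2 difference of OsGRP3 KD was 1.46 ± 0.13 (SE, edgeR adjusted p = 0.000378). Both of these comparisons with NT Nakdong use the same 2 NT libraries. The call in OsGRP3 OE was kept in 17 of 17 alternative analyses.

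The most abundant L44 gene, Os07g0523700, had 227 and 153 FPKM in OsGRP3 OE, against 99.7 and 94.8 FPKM in NT Nakdong, and 162 and 170 FPKM in OsGRP3 KD, against 59.1 and 57.9 FPKM in NT Dongjin. The OsGRP3 OE libraries differed more from each other than those of any other group, and both still lay above NT Nakdong. Its log2 change was 1.03 ± 0.18 (SE, edgeR adjusted p = 0.02) in OsGRP3 OE. This call was lost in 6 of 17 alternatives, namely the replicate block, limma on FPKM, the 3′-most exon, and leaving out OsGRP3 OE replicate 1 or either NT Nakdong library. Its neighbours Os07g0523300 and Os07g0523500 had log2 changes of 0.92 (edgeR adjusted p = 0.027) and 0.99 (edgeR adjusted p = 0.033), Os07g0523150 had 0.91 (edgeR adjusted p = 0.049), and Os07g0523100, the least abundant of them, had 0.85 with an adjusted p of 0.11. In OsGRP3 KD all 6 genes were called higher than NT Dongjin, with log2 changes of 1.15 to 1.56. By the same thresholds 56.8% of the 169 tested ribosomal protein genes and 23.8% of all tested genes were higher. The median over the 169 genes was 1.12, so a rise over NT Dongjin was not particular to L44. Against NT Nakdong the median over the 169 genes was 0.04. In every alternative, NT Nakdong as reference included, OsGRP3 KD stayed higher in 3 of the clustered genes. Their log2 changes were at least 0.701 in Os07g0523300, 0.733 in Os07g0523500 and 0.776 in Os07g0523700. Without OsGRP3 OE replicate 2, 6 genes were called in OsGRP3 OE, which were the 6 L44 genes, and without OsGRP3 OE replicate 1, NT Nakdong replicate 1 or NT Nakdong replicate 2 the call of Os07g0450000 alone remained. The 5 clustered genes may be near-identical copies among which the reads were divided, so their single values are uncertain, and so is the sum, since FPKM depends on the length of the transcripts to which the reads were given.

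**Figure D3:**
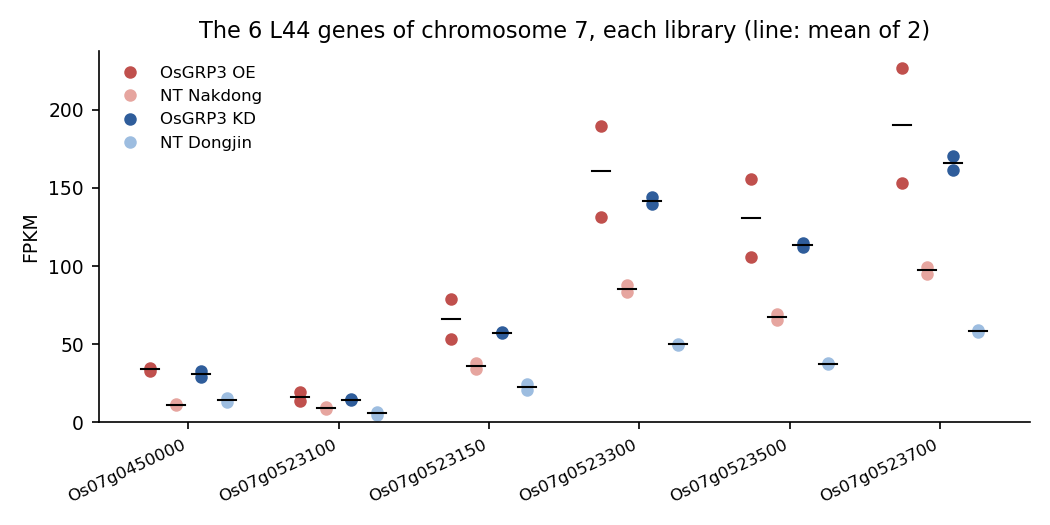
FPKM of the 6 L44 genes of chromosome 7 (y axis from 0) in each library, with the 4 groups side by side for each gene and a line at the mean of 2 libraries. In Os07g0450000 both OsGRP3 OE and both OsGRP3 KD libraries lie between 29.1 and 34.6 FPKM and the 4 NT libraries between 10.9 and 15.3 FPKM.

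S9, a small subunit protein that binds early in assembly and lies near the mRNA entry, has several gene copies that did not move together. Os11g0602600, on chromosome 11 at 23184448 to 23187520, had 145 and 147 FPKM in OsGRP3 OE, against 99.2 and 106 FPKM in NT Nakdong. It rose by less than 2-fold, with a log2 change of 0.54 ± 0.09 (SE, edgeR adjusted p = 0.019), and had an adjusted p of 0.235 in the least favourable alternative. Its neighbour on the same chromosome, the S9 gene Os11g0602500 at 23181023 to 23182739, had 109 and 111 FPKM in OsGRP3 OE, against 104 and 106 FPKM in NT Nakdong, a log2 change of 0.11 (edgeR adjusted p = 0.58). As a share of the summed FPKM of its family, Os11g0602600 made up 34.4% and 33.4% in OsGRP3 OE, against 25.6% and 26.6% in NT Nakdong, and 24.1% and 25.3% in the OsGRP3 KD libraries, against 23.1% and 26.5% in those of NT Dongjin. The higher share was thus seen in the OsGRP3 OE libraries, while the other 6 libraries overlapped.

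No ribosomal protein gene passed the test as lower in OsGRP3 OE. The 5 with the smallest p among those below NT Nakdong were L13 (Os06g0115500), L9 (Os02g0103700), L38 (Os07g0546700), L7 (Os08g0542300) and SA (Os03g0182600). L13 had 47.1 and 48.5 FPKM in OsGRP3 OE, against 60.6 and 56.1 FPKM in NT Nakdong, a log2 change of -0.25 with an edgeR adjusted p of 0.23. L9 had 34.8 and 29.1 FPKM in OsGRP3 OE, against 41.4 and 37.6 FPKM in NT Nakdong, a log2 change of -0.27 with an edgeR adjusted p of 0.4. The groups did not overlap in either gene, and the remaining 3 had log2 changes of -0.42 to -0.16 with adjusted p-values of 0.41 to 0.47.

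Between OsGRP3 KD and NT Dongjin leaves, ribosomal protein genes of both subunits were higher in OsGRP3 KD almost throughout. At 2-fold with an edgeR adjusted p under 0.05, 96 of 169 genes rose, which is 56.8% of them, and 1 fell. Over all tested genes 23.8% rose and 13.8% fell by the same thresholds. The unadjusted threshold gave the same counts of 96 and 1, beside 24.6% and 14.2% of all tested genes. Without the fold threshold, 158 genes were higher and 2 lower at an adjusted p under 0.05, beside 35.1% and 27.8% of all tested genes. Both OsGRP3 KD libraries lay above both NT Dongjin libraries in 162 genes, beside 45.4% of all tested genes, and below both in 5 genes, beside 37.3%. The median log2 change was 1.12, or 2.17-fold, with quartiles of 0.84 and 1.32, while over all tested genes the median was 0.14 with quartiles of -0.61 and 1.19. The shift was alike in both subunits, with 40 of 66 small subunit genes called higher at a median of 1.13 and 56 of 103 large subunit genes at a median of 1.11. All 68 families had a higher summed FPKM in OsGRP3 KD, and in 24 families every tested paralog was called higher, in 49 at least 1, and in 19 none.

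These counts rest on NT Dongjin. Against NT Nakdong, a comparison added after the data were seen, 2 genes were higher in OsGRP3 KD and 0 lower at the same thresholds, beside 1.36% and 3.04% of all tested genes, and the median log2 difference was 0.04, beside 0.01 over all tested genes. The 2 genes were L44 (Os07g0450000) and S9 (Os03g0379500). The median difference of NT Dongjin minus NT Nakdong, both non-transgenic, was -1.06 without a test, beside -0.09 over all tested genes. When reads were counted over the 3′-most exon alone, which lessens the weight of the coverage along the transcript, 38 of 165 genes passed against NT Dongjin, 37 higher and 1 lower, beside 19.7% and 13.0% of all genes tested that way. The share called higher was thus near that of all genes, and the share called lower was below it. The median was 0.77, beside 0.09 over all genes. The part of coverage and of cultivar in the remaining difference was not tested.

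The 8 largest called rises over NT Dongjin were in S20, L37a, L17, L39 (2 genes), L40, L34 and L37. S20 (Os03g0249400, chromosome 3 at 7884815 to 7886786), a protein of the head of the small subunit, had 32.4 and 33.7 FPKM in OsGRP3 KD, against 5.93 and 4.81 FPKM in NT Dongjin. It had 40.4 and 37.4 FPKM in OsGRP3 OE, against 31.8 and 33.2 FPKM in NT Nakdong. The NT Dongjin libraries lay far below the other 6, and the log2 change in OsGRP3 KD was 2.65 ± 0.14 (SE, edgeR adjusted p = 8.4e-07), or 6.28-fold, whereas that in OsGRP3 OE was 0.30 (edgeR adjusted p = 0.32).

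L37a (Os05g0557000), a zinc-binding protein of the large subunit, had 134 and 144 FPKM in OsGRP3 KD, against 36.8 and 34.3 FPKM in NT Dongjin, and 162 and 167 FPKM in OsGRP3 OE, against 130 and 127 FPKM in NT Nakdong. The rise in OsGRP3 KD was 3.99-fold (SE of 0.09 on the log2 scale, edgeR adjusted p = 4.3e-07), and the log2 change was 0.39 (edgeR adjusted p = 0.059) in OsGRP3 OE. Its groups did not overlap in either pair, but the change in OsGRP3 OE did not pass the test. L17 and L39 both line the tunnel through which the growing protein leaves the ribosome. L17 (Os10g0466700) had 225 and 254 FPKM in OsGRP3 KD, against 61.5 and 67.5 FPKM in NT Dongjin, a log2 change of 1.92 (edgeR adjusted p = 1.9e-06). L39 (Os06g0181566), which is among the shortest ribosomal proteins, had 248 and 283 FPKM in OsGRP3 KD, against 70.6 and 74.3 FPKM in NT Dongjin, a log2 change of 1.91 (edgeR adjusted p = 9.7e-07). In OsGRP3 OE and NT Nakdong the same L39 gene stayed between 215 and 231 FPKM in all 4 libraries. The second L39 gene, Os02g0797200, had 146 and 155 FPKM in OsGRP3 KD, against 45.5 and 47 FPKM in NT Dongjin, a log2 change of 1.73.

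The remaining 3 showed the same arrangement of the libraries. L34 (Os09g0413500) had 131 and 136 FPKM in OsGRP3 KD, against 36.3 and 36.2 FPKM in NT Dongjin, a log2 change of 1.84 (edgeR adjusted p = 7e-07). L37 (Os02g0815000) had 55.5 and 63.6 FPKM in OsGRP3 KD, against 16.5 and 20.2 FPKM in NT Dongjin, a log2 change of 1.72. L40 (Os09g0568400) is made as a fusion with ubiquitin that is later split, so that its gene also supplies ubiquitin. It had 32.9 and 32.1 FPKM in OsGRP3 KD, against 7.5 and 7.9 FPKM in NT Dongjin, a log2 change of 1.84 ± 0.17 (SE, edgeR adjusted p = 1.9e-05), and 34.2 and 29.6 FPKM in OsGRP3 OE, against 34.3 and 27.8 FPKM in NT Nakdong. The L40 libraries of OsGRP3 OE and NT Nakdong overlapped.

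**Figure D4:**
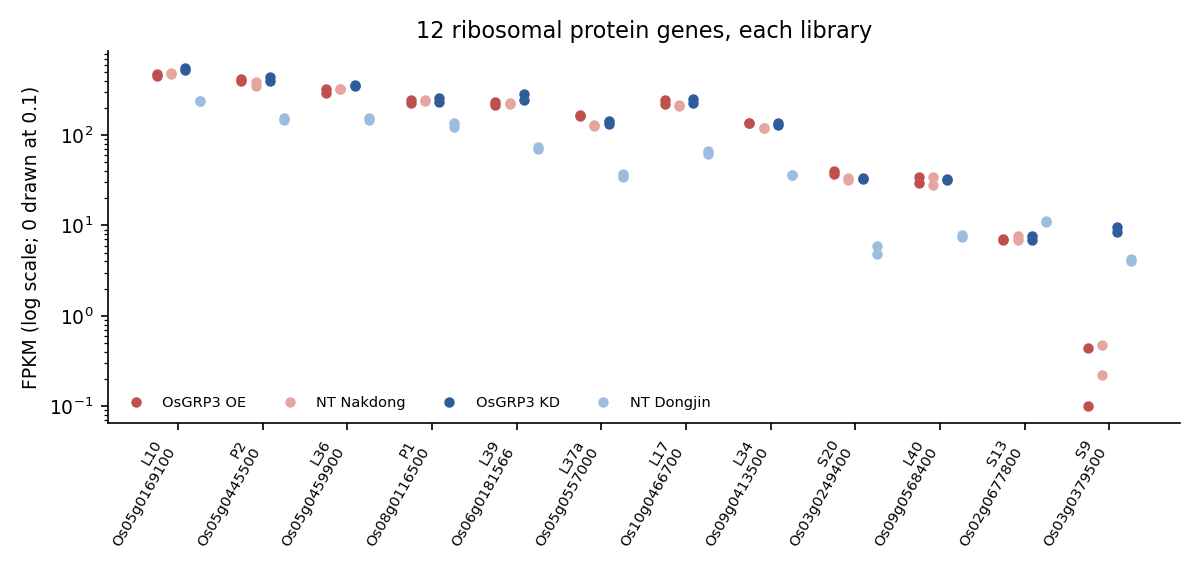
FPKM on a log scale (y axis, 0 drawn at 0.1) of 12 ribosomal protein genes (x axis), 1 point per library, coloured by group. In S20 Os03g0249400 the NT Dongjin libraries lie at 5.93 and 4.81 FPKM and the other 6 libraries between 31.8 and 40.4 FPKM.

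Of the stalk proteins, 6 of the 7 tested genes were higher in OsGRP3 KD than in NT Dongjin, by different amounts, and 1 was lower. The 8 stalk genes together had 871 and 944 FPKM in OsGRP3 KD, against 427 and 406 FPKM in NT Dongjin, and 910 and 851 FPKM in OsGRP3 OE, against 867 and 832 FPKM in NT Nakdong. In OsGRP3 KD, 3 of the 7 tested genes rose by the thresholds and 0 fell, beside 23.8% and 13.8% of all tested genes, a difference too small to read in 7 genes, and in OsGRP3 OE 0 passed, beside 0.619% and 0.853%, with log2 changes of -0.20 to 0.20. P2 (Os05g0445500) had a log2 change of 1.47 ± 0.09 (SE, edgeR adjusted p = 2.4e-06) over NT Dongjin. P3 (Os06g0701400), the stalk protein found in plants alone, had 77.1 and 75.2 FPKM in OsGRP3 KD, against 33 and 27.6 FPKM in NT Dongjin, a log2 change of 1.36. The second P2 gene, Os01g0231700, had a log2 change of 1.22. P1 (Os08g0116500) had 231 and 260 FPKM in OsGRP3 KD, against 135 and 125 FPKM in NT Dongjin, and with a log2 change of 0.95 (edgeR adjusted p = 7.5e-05) it stayed under 2-fold. P0 (Os08g0130500), the base of the stalk, had 130 and 136 FPKM in OsGRP3 KD, against 86.1 and 87.4 FPKM in NT Dongjin, a log2 change of 0.65. The minor P0 genes Os12g0133050 and Os11g0135400 had log2 changes of 0.17 and -0.95 with adjusted p-values of 0.48 and 0.099, and the P2 gene Os07g0470300 had 0 counts in all 8 libraries.

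By counts, some of the most abundant genes moved less than the median. L10 (Os05g0169100), first by level, had a log2 change of 0.67 ± 0.08 (SE, edgeR adjusted p = 0.00012) over NT Dongjin. In FPKM, however, both OsGRP3 KD libraries of L10 were more than 2-fold above NT Dongjin. Its log2 change reached 1.17 among the alternative analyses, so its place beside the median depended on the measure. In OsGRP3 KD, 79% and 79.5% of the L10 coverage was given to a transcript of 555 bases. In NT Dongjin 99.9% was given to one of 909 bases. FPKM depends on the transcript length, so the level and rank of L10 by FPKM are uncertain. The part of this division in the difference between the measures was not tested. L9 (Os09g0485900), with 221 and 240 FPKM in OsGRP3 KD, against 121 and 130 FPKM in NT Dongjin, had 0.90 by counts. L36 (Os05g0459900) had 348 and 356 FPKM in OsGRP3 KD, against 154 and 147 FPKM in NT Dongjin, and rose by a log2 change of 1.25 (edgeR adjusted p = 6.1e-06).

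Against this general rise, 5 tested genes lay below NT Dongjin. S13 (Os02g0677800), with 3362 bases the longest transcript of all 169 genes, had 7.75 and 6.89 FPKM in OsGRP3 KD, against 11.3 and 10.8 FPKM in NT Dongjin, and 7 and 7.09 FPKM in OsGRP3 OE, against 7.69 and 6.85 FPKM in NT Nakdong. It was lower by a log2 change of -0.57 ± 0.10 (SE, edgeR adjusted p = 0.00085), less than 2-fold, and here NT Dongjin was the highest group. The 1 gene called lower was L35 (Os06g0732000), which had 3 counts in all in OsGRP3 KD, against 51 in NT Dongjin (edgeR adjusted p = 0.038), a ratio of 0.0605 with an exact 95% counting interval of 0.0121 to 0.187. The other 3 had adjusted p-values of 0.099 or more, with log2 changes of -0.95 for P0 (Os11g0135400), -1.37 for S18 (Os07g0174200) and -0.51 for L15 (Os06g0308200), all at low counts. Among the 96 genes called higher, L38 (Os08g0541950) had 9 counts in all in OsGRP3 KD and 0 in NT Dongjin, at least 3.08-fold higher against a floor of 3 counts over the group. It also had 28 counts in OsGRP3 OE and 0 in NT Nakdong, at least 11.1-fold higher, with an edgeR adjusted p of 0.094. At such counts the calls were not firm, since that of L38 in OsGRP3 KD was lost in 12 of 14 alternatives, and that of L35 was lost in 7 of 15 and turned round in 1. Putting such genes at their bounds left the medians at 0.03 in OsGRP3 OE and 1.12 in OsGRP3 KD.

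The size of the change fell with transcript length over all genes, and over most of the range in the ribosomal protein genes. Over NT Dongjin, genes with a transcript of up to 500 bases had a median log2 change of 1.21 (18 ribosomal protein genes), beside 0.95 over all genes of that length. The medians were 1.24 (38 genes), beside 0.98, at 501 to 700 bases, 1.16 (52 genes), beside 0.87, at 701 to 900 bases, and 0.90 (38 genes), beside 0.61, at 901 to 1100 bases. They were 0.60 (14 genes), beside 0.34, at 1101 to 1500 bases, and the longer classes did not go on with this order. At 1501 to 2500 bases the median was 1.29, the highest of all classes, beside -0.12 over all genes, but only 7 ribosomal protein genes had such a length, and above 2500 bases the median of 2 genes was 0.14, beside -0.73. Within each of these length classes the ribosomal protein genes had the higher median. With the 3′-most exon alone the medians of the 5 classes up to 1500 bases were 0.77, 0.92, 0.76, 0.72 and 0.57 from short to long, beside 0.42, 0.50, 0.49, 0.32 and 0.21 over all genes. Coverage along the transcript also differed in the ribosomal protein genes themselves. In 98 of them the median log2 ratio of first over last exon was -1.34 and -1.49 in the OsGRP3 KD libraries, against -0.61 and -0.54 in those of NT Dongjin, and -1.36 and -1.55 in OsGRP3 OE, against -1.43 and -1.13 in NT Nakdong.

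**Figure D5:**
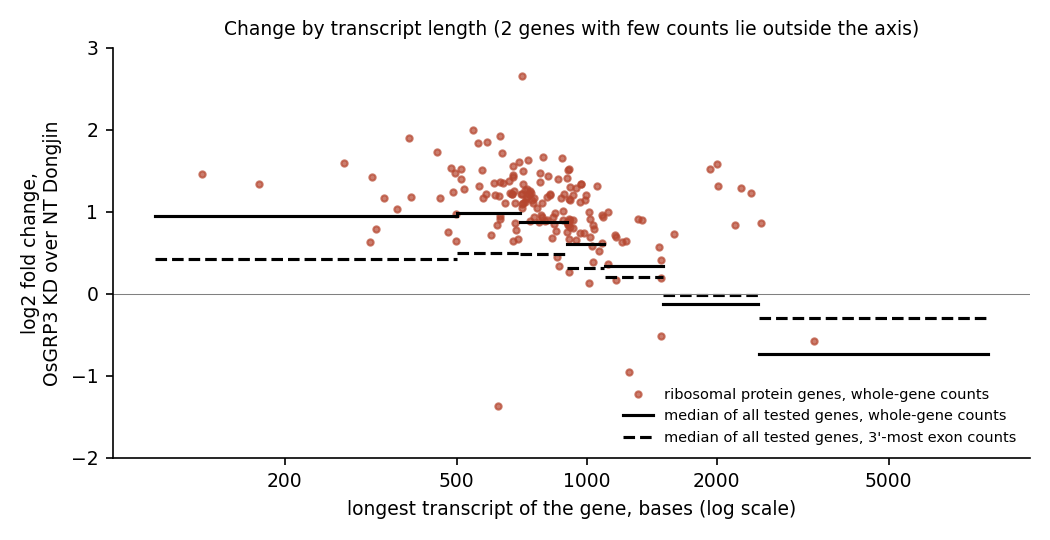
Log2 fold change of OsGRP3 KD over NT Dongjin (y axis) by the length of the longest transcript in bases (x axis, log scale) for the tested ribosomal protein genes (points), with the medians of all tested genes in each length class as lines, for whole-gene counts and for counts of the 3′-most exon. The medians of all genes are 0.95 at up to 500 bases and 0.34 at 1101 to 1500 bases, and most points lie above the lines. 2 genes with few counts lie outside the axis.

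The change itself differed between the transgenic groups. The change in OsGRP3 OE minus that in OsGRP3 KD, tested as a contrast in the same model, was called in 88 of 169 genes, of which 87 were below 0 and 1 above, beside 22.0% and 12.0% of all tested genes, with a median of -1.02, beside -0.15. The 1 gene above 0 was L35 (Os06g0732000), which had 0 counts in NT Nakdong and few elsewhere. The 5 genes with the smallest p were L39 (Os06g0181566), L37a (Os05g0557000), L34 (Os09g0413500), S20 (Os03g0249400) and S9 (Os03g0154700). S9 (Os03g0154700) had 164 and 176 FPKM in OsGRP3 OE, against 180 and 182 FPKM in NT Nakdong, and 204 and 201 FPKM in OsGRP3 KD, against 85.6 and 76.9 FPKM in NT Dongjin. Its difference of -1.40 came with the low level of NT Dongjin, as in the other 4 genes. With the 3′-most exon alone, 35 of 165 genes were called, 33 below 0 and 2 above, beside 17.9% and 10.5% of all genes tested that way. The share below 0 was thus near that of all genes.

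The shares of paralogs within a family were compared between groups in the 54 families with 2 or more genes. All of these had a summed mean of at least 20 FPKM. In 99 of 163 genes the group means of the share of the family's FPKM lay within 5 percentage points. This count includes silent genes and minor paralogs, whose shares had little room to move. In a family of 2 genes both shares also move by the same amount. Whether proportions were mostly kept can therefore not be read from it. In 14 genes of 9 families the shares differed by 10 points or more. The largest of these differences, taken without a test, again set NT Dongjin apart. In L22, an RNA-binding protein of the large subunit, Os03g0343500 made up 57.7% and 52.5% of the family in OsGRP3 OE, 55.1% and 54.7% in NT Nakdong, 49.8% and 51.7% in OsGRP3 KD, and 38.4% and 35.8% in NT Dongjin. Its only partner among the 177 genes, Os07g0674200, rose less over NT Dongjin, with a log2 change of 0.86, against 1.66 for Os03g0343500. In S20, Os03g0249400 made up 17.4% and 17.5% in OsGRP3 OE, 14.4% and 15.5% in NT Nakdong, 14.3% and 14.2% in OsGRP3 KD, and 5.21% and 4.45% in NT Dongjin, while Os06g0134000 made up 38.2% and 39.9% in OsGRP3 KD and 52.3% and 52.6% in NT Dongjin. In L17, Os10g0466700 made up 46.6% and 48.2% in the OsGRP3 KD libraries, against 31.5% and 35.3% in those of NT Dongjin. In L37a, Os05g0557000 made up 42.4% and 38.4% in the OsGRP3 KD libraries, against 30.4% and 28.9% in those of NT Dongjin. In S13, Os08g0117300 made up 59.1% and 56.6% in the OsGRP3 KD libraries, against 45.4% and 46% in those of NT Dongjin. In the genes of these 5 families named here, the shares in the OsGRP3 OE, NT Nakdong and OsGRP3 KD libraries lay closer to each other than to NT Dongjin. Other genes of these families did not all follow. The S20 gene Os10g0170200 made up 43.4% in OsGRP3 OE replicate 2 and 48.5% in NT Nakdong replicate 1, against 42.5% and 42.9% in NT Dongjin.

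The choice between annotated transcripts of 1 gene differed in some ribosomal protein genes. Of 28 ribosomal protein genes with 2 or more transcripts, a transcript's share of the gene's coverage differed by 10 points or more in 7 genes between OsGRP3 KD and NT Dongjin and in 3 genes between OsGRP3 OE and NT Nakdong, but the libraries did not overlap in only 6 and 1 of these, and in some a single library made the difference. The same counts were not taken over all genes with 2 or more transcripts. Whether they are particular to ribosomal protein genes is therefore not known. In S3a (Os03g0200500), for example, 1 transcript made up 77.1% and 99.8% in the OsGRP3 KD libraries and 99.8% and 99.9% in those of NT Dongjin, and in L6 (Os03g0725000) 1 transcript made up 8.08% and 21.1% in the OsGRP3 KD libraries and 99.9% and 9.03% in those of NT Dongjin. The difference was large and alike in both libraries in L10 and S23. L10 (Os05g0169100, chromosome 5 at 4142124 to 4144008) has a transcript of 909 bases in 4 exons and one of 555 bases in 3 exons that starts at 4143174. The longer made up 21% and 20.5% in OsGRP3 KD, against 99.9% in each NT Dongjin library, and 25.1% and 22.6% in OsGRP3 OE, against 22.4% and 23.1% in NT Nakdong. In S23 (Os03g0818400), a small subunit protein of the decoding centre, the transcript of 969 bases made up 0.999% and 0.991% in the OsGRP3 KD libraries, against 100% and 93.8% in those of NT Dongjin, and 1.11% and 0.784% in OsGRP3 OE, against 10.4% and 0.534% in NT Nakdong. The other S23 transcript has 900 bases and a shorter 5′ end. S23, S3a and L6 were chosen after their values were seen. These shares are how StringTie divided the coverage, and whether they follow from the different coverage of the 5′ ends in NT Dongjin was not tested.

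Other genes of the translation apparatus, taken by keywords in their descriptions, did not all move with the cytosolic ribosomal proteins. Organellar ribosomal proteins, which serve chloroplasts and mitochondria, had 31 of 66 tested genes higher and 1 lower in OsGRP3 KD at a median log2 change of 0.97, beside 23.8% higher, 13.8% lower and a median of 0.14 over all tested genes, to which the counts in OsGRP3 KD that follow are also set. They had 0 called in OsGRP3 OE at a median of 0.18, where 0.619% of all tested genes were higher and 0.853% lower at a median of 0.00. Ribosomal protein genes described without a subunit name had 37 of 90 higher and 4 lower in OsGRP3 KD at a median of 0.75, and 0 called in OsGRP3 OE at a median of 0.10. Translation initiation factors, which bring ribosome and mRNA together, had 1 of 40 higher and 10 lower in OsGRP3 KD at a median of -0.22, and 0 higher and 1 lower in OsGRP3 OE at a median of -0.04. Elongation factors, which deliver tRNAs and move the ribosome along, had 0 of 10 called in either comparison, with medians of 0.23 in OsGRP3 KD and -0.07 in OsGRP3 OE. Ribosome biogenesis genes, which process ribosomal RNA and assemble subunits, had 0 of 42 higher and 3 lower in OsGRP3 KD at a median of 0.01, and 0 higher and 1 lower in OsGRP3 OE at a median of 0.04. So 2 groups of ribosomal proteins had higher medians over NT Dongjin than all genes had. Factors and biogenesis genes had medians near or below that of all genes, with elongation factors slightly above it. These lists were not matched for transcript length. Over all genes the median in OsGRP3 KD was 0.98 at 501 to 700 bases, 0.87 at 701 to 900 bases and -0.12 at 1501 to 2500 bases. The part of length in the medians of the lists was not tested.

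Markers of cell types were also called higher over NT Dongjin in larger shares than the 23.8% of all tested genes, whose median log2 change was 0.14 and of which 13.8% were lower. Of the dividing cell markers (histones and B-type cyclins), 27 of 54 tested genes were called higher and 2 lower in OsGRP3 KD at a median of 1.06, while their summed level was 4194 and 3971 TPM in OsGRP3 KD, against 3726 and 3819 TPM in NT Dongjin. In OsGRP3 OE 1 was higher and 1 lower at a median of -0.15, and the sum was 3921 and 3848 TPM, against 3808 and 4033 TPM in NT Nakdong. Of the mesophyll markers (Rubisco small subunit and light-harvesting genes), 9 of 21 were higher and 0 lower in OsGRP3 KD at a median of 0.70, with sums of 136600 and 150200 TPM in OsGRP3 KD, against 79160 and 79090 TPM in NT Dongjin. In OsGRP3 OE 0 were called at a median of 0.07, with sums of 158600 and 134600 TPM, against 149100 and 150800 TPM in NT Nakdong. The part of these markers in the change of the ribosomal protein genes was not tested. The markers were not matched for transcript length either. All tested genes of 501 to 700 bases had a median of 0.98 in OsGRP3 KD, and those of 701 to 900 bases one of 0.87. A difference in cell types can therefore not be read from these counts.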

How the data were processed

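Leaf RNA libraries of 4 groups, 2 per group, were analysed. The submitters' processing notes name HISAT2, Bowtie2 and StringTie with the IRGSP-1.0 build, and the file headers name StringTie 1.3.4d. The study's methods name another aligner and an unstranded kit while the labels name a stranded one, so reads of a gene and an antisense partner may not be separated. The authors deposited estimated counts: each transcript's StringTie coverage was multiplied by its length, divided by the read length of 101 and rounded up, and the transcripts of a gene were summed. These were tested as deposited. For FPKM and TPM, the authors added up StringTie's values over a gene's transcripts. The coverage of exons and transcripts was deposited by the authors as reads per base, and counts of the 3′-most exon were computed from it.

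Counts were normalized by TMM, filtered by filterByExpr and tested with the quasi-likelihood F test of edgeR, with 1 mean for each of 4 groups over 8 libraries, and p-values were adjusted by Benjamini-Hochberg over all tested genes. R 4.3.3, edgeR 4.0.16, limma 3.58.1, DESeq2 1.42.0, Python 3.11.15, pandas 2.3.3 and matplotlib 3.10.9 were used. The fit was tested on simulated data. Genes were called at 2-fold with an adjusted p under 0.05. Total counts of 25836946 to 38940899 leave genes under about 10 counts with a wide counting error, and intervals and floors cover counting error only. No 2 libraries of a group agreed within sampling noise.

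Genes named are the 6 highest and 3 lowest by FPKM, up to 8 with the largest called rise and fall in each comparison with a mean log2 CPM of at least 1 and no overlap (where under 3 passed, the 5 with the smallest p), the 5 families with the largest difference in paralog shares, the stalk and ubiquitin fusion genes, and the 5 with the smallest p in the difference of changes. Others were named after their values were seen, among them the remaining L44 and S9 genes. The members and lists were chosen with earlier results of these data known. Alternatives were other size factors, filters and tests, a replicate block, FPKM values, 3′-most exons, a wider list, and each library left out. Sequences and promoter motifs were not analysed here.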

Additional observations from a re-analysis of the deposited data

Results flagged for a closer look

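The change in OsGRP3 OE and the change in OsGRP3 KD differed, by the contrast tested in the edgeR model, in 88 of the 169 ribosomal protein genes, 87 below 0 and 1 above, beside 22.0% and 12.0% of all tested genes. Among them, the log2 difference (change in OsGRP3 OE minus change in OsGRP3 KD) was -1.89 in L39 (Os06g0181566, edgeR adjusted p = 1.3e-05), -1.60 in L37a (Os05g0557000), -1.63 in L34 (Os09g0413500), -2.36 in S20 (Os03g0249400) and -1.40 in S9 (Os03g0154700). In each of these 5 genes both NT Dongjin libraries were below the other 6, and the change in OsGRP3 KD rests on them. Groups of 2 libraries are too small to look for single libraries that stand apart.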

How the results depend on the processing

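The count of genes called in OsGRP3 OE (2) was 1 with the replicate block and 1 with limma on log2(FPKM + 1), and 1 to 6 when each library was left out. With the 3′-most exon the count stayed at 2, of which only 1 was an L44 gene (Os07g0450000). The median of 0.03 in OsGRP3 OE turned to -0.0106 with limma, and lay between -0.0658 (without OsGRP3 OE replicate 1) and 0.13 when each library was left out. The count in OsGRP3 KD (97, of which 96 higher) was 38 with the 3′-most exon and 2 with NT Nakdong in place of NT Dongjin, which was chosen after seeing the data, and 85 to 111 with each library left out. Its median of 1.12 was 0.77 and 0.0382 in these 2 alternatives, and 1.00 to 1.20 with each library left out. The count for the difference of changes (88) was 35 with the 3′-most exon and 71 to 106 with each library left out. The cause of these moves was not tested. The replicate numbers did not pair the samples (r of -0.03 and 0.00 across 24383 genes), and the replicate block gave 95 genes in OsGRP3 KD and 89 for the difference. The wider list of 259 genes gave 2, 138 and 123. Of 26 named genes called in OsGRP3 KD, 25 lost the call with NT Nakdong in place of NT Dongjin, and L44 (Os07g0450000) kept it. Among the named genes with an adjusted p under 0.05 in OsGRP3 KD, 11 then changed sign, with log2 differences of 3.74 in L35 (Os06g0732000, no counts in NT Nakdong), -0.161 in L13 (Os06g0115500), -0.577 in L9 (Os02g0103700), -0.0705 in L38 (Os07g0546700), -0.15 in SA (Os03g0182600), -0.201 in L40 (Os09g0568400), -0.0154 in L39 (Os02g0797200), 0.00247 in S13 (Os02g0677800), -0.0129 in S13 (Os08g0117300), -0.0633 in P0 (Os08g0130500) and -0.00811 in P2 (Os01g0231700). Of these, L9 had an edgeR adjusted p of 0.028 and the rest of 0.3 or more. In the other alternatives the sign of no named gene with an adjusted p under 0.05 changed, and calls were lost in 28 of 435 cases in OsGRP3 KD, 6 of 34 in OsGRP3 OE and 0 of 80 for the difference. The fit of the difference on 4 libraries and the promoter motifs were not run. With 2 libraries per group, small changes are not detectable.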

Other observations

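The S9 gene Os03g0379500, on chromosome 3 at 15005895 to 15008257, differed between the cultivars more than between transgenic and NT plants. It had 14 and 0 counts in OsGRP3 OE and 7 and 20 counts in NT Nakdong, and 262 and 272 counts in OsGRP3 KD and 108 and 148 counts in NT Dongjin. Both Dongjin groups thus lay above both Nakdong groups. The log2 difference of OsGRP3 KD over NT Nakdong was 4.57 ± 0.65 (SE, edgeR adjusted p = 0.0053), in which cultivar and knockdown cannot be told apart, and that over NT Dongjin was 1.15 (edgeR adjusted p = 0.084).

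A further S18 gene, Os07g0173700, which was not tested, had 56 counts in 1 NT Dongjin library and 0 in the other 7 libraries.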
